A study of Sus scrofa with 12 samples.

Results

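The genes described here encode the extracellular matrix and the receptors that hold cells to it. They are the collagens, the laminin chains, the integrin subunits, and FN1, SPARC, VCAN and FLRT3, taken by gene symbol from the annotation of 2 microarray designs. The rule found 70 genes among 12627 named genes. On the first array set 67 of 11913 genes were members, namely 32 collagens, 24 integrins, 8 laminin chains, FN1, VCAN and FLRT3. On the second array set 32 of 4531 were members, namely 16 collagens, 11 integrins, the laminin chain LAMA4, FN1, VCAN, FLRT3 and SPARC. Both array sets measured 29 of them. No filter on low values was applied, so every member found entered the fit.

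Pig (Sus scrofa) embryos at the hatched blastocyst stage, collected 5.5 days after insemination in vivo, were hybridised against embryos at the early blastocyst stage, collected at 5 days. Each array set had 6 arrays, 3 with the hatched stage in Cy5 and 3 with the early stage in Cy5. The labels name no breed, treatment or number of pooled embryos, and do not state whether arrays have an RNA extract in common. The p-values therefore rest on array-to-array spread, which may be in part technical. Each value is a log ratio of the channels, read here as log2, and no source used here names its numerator. Members are therefore said to lie above or below 0 (on the positive or negative side), and no stage is called higher.

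A basement membrane is a thin sheet of laminin and collagen IV networks under an epithelium, joined by linker proteins and bound by integrins, which are receptors built of an alpha and a beta chain. In mammalian blastocysts the hypoblast, the layer that lines the cavity, is known for secreting such a sheet. Fibronectin is a soluble and fibrillar ligand of several integrins, and SPARC binds collagen IV. FLRT3 is a membrane protein that, in the mouse, keeps the basement membrane of the anterior visceral endoderm intact. The trophectoderm, the outer epithelium, meets the uterine surface with integrins after hatching.

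Hatched in Cy5 replicate 2 and early in Cy5 replicate 1 stood apart from the other arrays. Their log ratios over all probes had standard deviations of 0.335 and 0.301 on the first array set and 0.364 and 0.381 on the second. The other arrays had 0.387 to 0.462 on the first and 0.486 to 0.512 on the second. In both array sets the residuals of the 2 narrow arrays correlated (0.725 and 0.746). So did those of hatched replicate 1 with early replicate 2, and of hatched with early replicate 3. Arrays of such a pair may share an extract, which the labels do not state. Leaving out the narrow arrays may then remove 1 of 3 samples, and leaving out 1 array keeps the other of its pair. Values without these 2 narrow arrays are given for the called members, and for uncalled ones where the call, the side or the size changed by over 1.5 times. The arrays are ratios, so the level of a gene, and whether it was detected at all, cannot be read from them.

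On the first array set 5 of 67 members passed the test (limma, adjusted p under 0.05 over all genes), all on the positive side: LAMB1, FLRT3, ITGB6, COL4A1 and LAMA4. Over all genes 4.75% passed, 2.38% on the positive side. On the second array set 3 of 32 members passed, FN1 and FLRT3 on the positive and COL27A1 on the negative side, where 11.0% of all genes passed, 5.27% above and 5.72% below 0. The shares of members called, 7.46% and 9.38%, were near those over all genes. The unadjusted p was under 0.05 for 9 of 67 members (17.1% of all genes) and for 7 of 32 (23.7% of all genes). All 6 arrays lay on 1 side for 5 of 67 members (9.24% of all genes) and for 5 of 32 (15.2% of all genes). FLRT3 was the 1 member called on both array sets among the 5 called on either that both measured. The median log2 ratio of the members was 0.0420 on the first and 0.0234 on the second array set, against 0.00273 and 0.0050 over all genes.

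**Figure D1:**
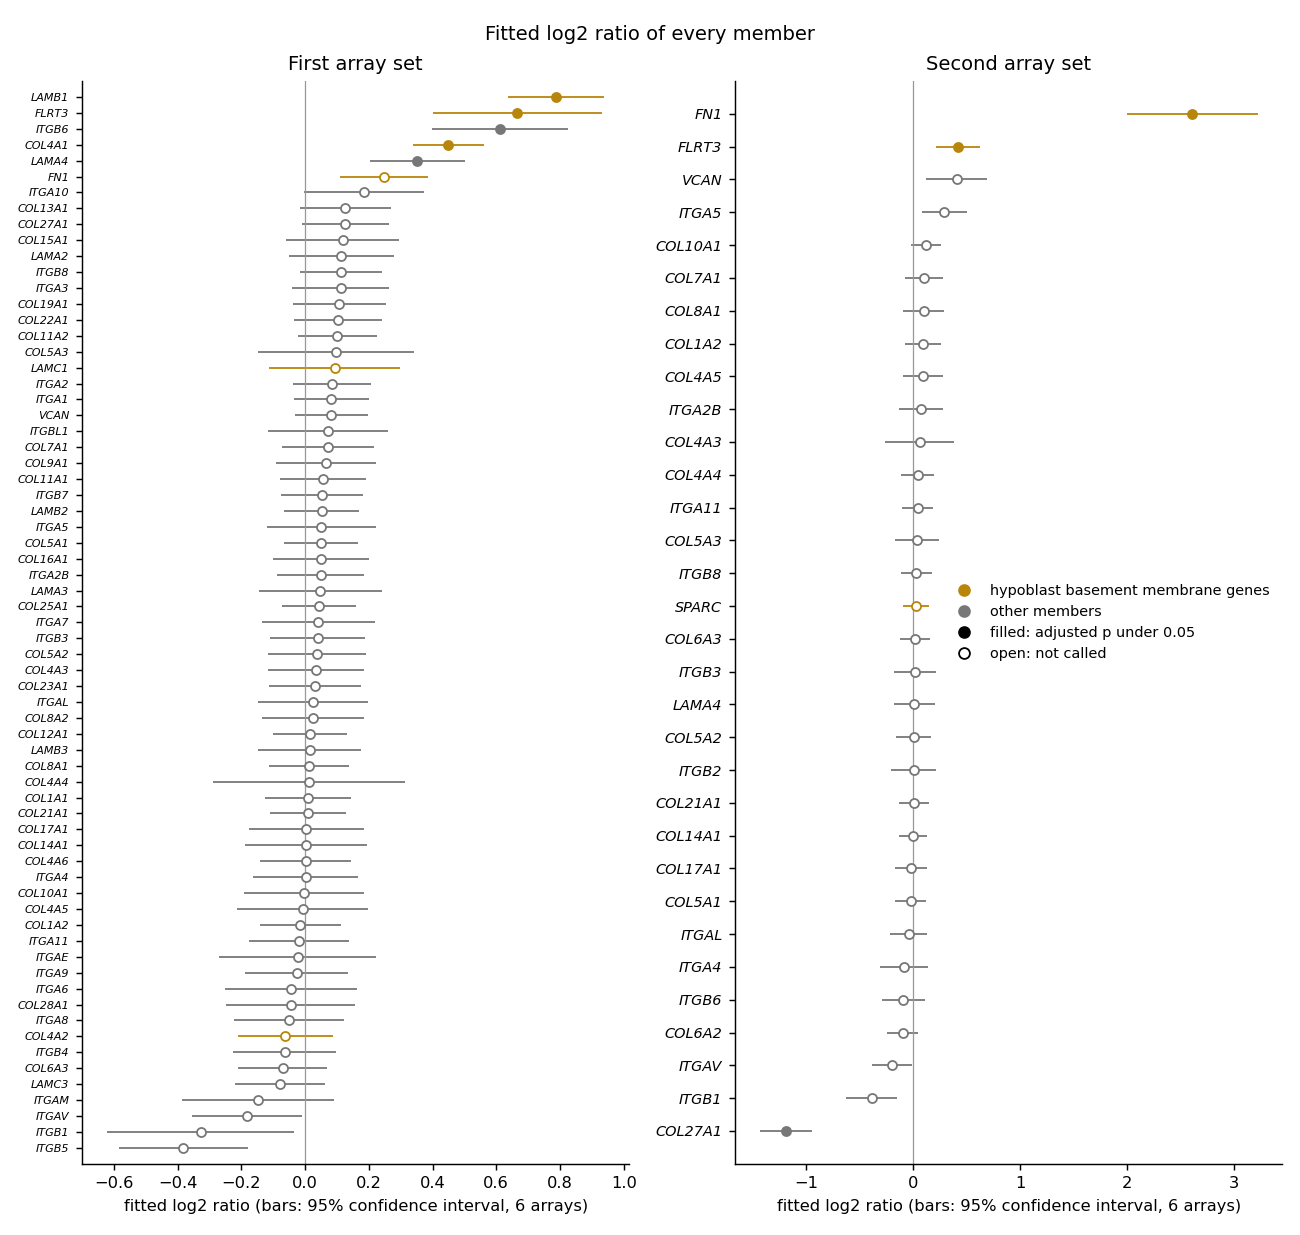
Fitted log2 ratio (horizontal axis) of every member, with 95% confidence intervals over 6 arrays, on the first array set (left, 67 genes) and the second (right, 32 genes). Gold marks hypoblast basement membrane genes, grey the other members, and filled points passed an adjusted p of 0.05. Most intervals cross 0, and FN1 and COL27A1 on the second array set lie farthest from it.

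The hypoblast basement membrane genes, a list chosen with earlier results of these data known, were set beside the other members. Over all genes 4.75% were called on the first and 11.0% on the second array set, 2.38% and 5.27% on the positive side. Of the 8 listed genes 6 were measured on the first array set (LAMB1, LAMC1, COL4A1, COL4A2, FN1 and FLRT3), 3 were called positive and 5 lay above 0. Their median log2 ratio was 0.35. Of the 61 other members 2 were called, 45 lay above 0 and the median was 0.04. On the second array set 3 were measured (FN1, FLRT3 and SPARC), 2 were called positive and the median was 0.42, which is the value of FLRT3. With the median of the probes of each gene it was 0.10. Of the 29 other members there 1 was called, on the negative side, and the median was 0.02. LAMA1 was measured on neither array set. The median of the basement membrane genes lay above 0 on all 6 arrays of both sets, from 0.15 to 0.52 on the first and from 0.13 to 0.69 on the second. On every array of the second set that median is the value of FLRT3 alone. No laminin or collagen IV chain of the list was measured there. The median of the other members ran from -0.04 to 0.08 and from -0.06 to 0.10. No test of this difference was run. The other members ranged from -0.38 to 0.61 on the first and from -1.19 to 0.41 on the second array set. Within that range lay LAMC1, COL4A2, COL4A1 and FN1 of the first array set and SPARC of the second. FLRT3 of the second, at 0.42, lay just above it. In whole embryos, fewer cells of a type and less RNA per cell cannot be told apart.

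**Figure D2:**
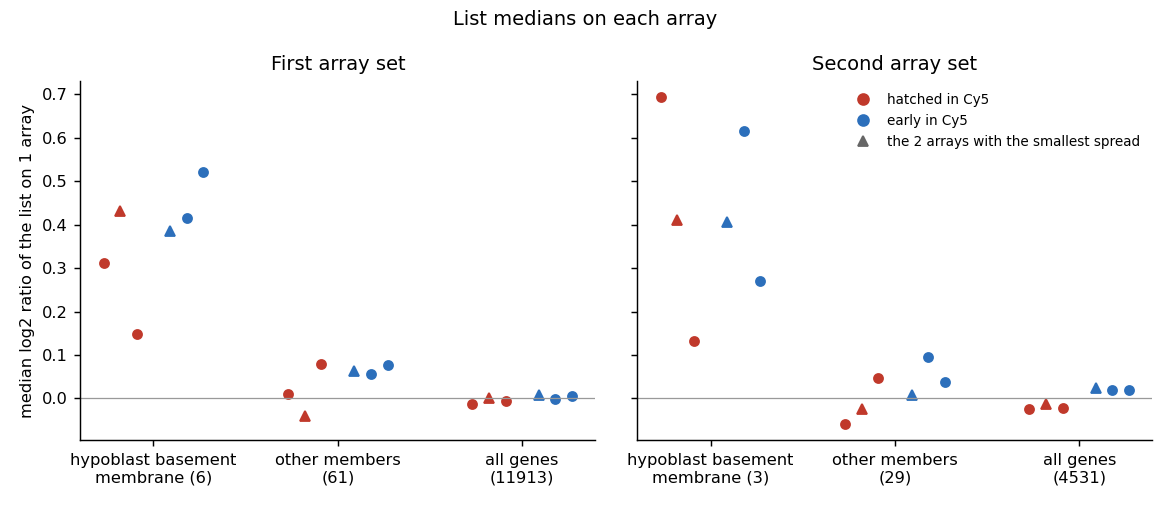
Median log2 ratio of a gene list on 1 array (vertical axis), for hypoblast basement membrane genes, other members and all genes, with the number of genes in brackets. Red points are arrays with the hatched stage in Cy5, blue points those with the early stage in Cy5, and triangles the 2 narrow arrays. The basement membrane medians lie above 0.1 on every array, and those of the other lists lie within 0.1 of 0. On the second array set the basement membrane medians are the values of FLRT3 alone.

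LAMB1, the beta 1 chain of laminin, had the largest ratio of any member on the first array set. It lay at 0.99, 0.87 and 0.69 on the arrays with the hatched stage in Cy5 and at 0.63, 0.66 and 0.89 on those with the early stage in Cy5. The 6 values were close together and the dye orientations overlapped. The fitted log2 ratio was 0.79 ± 0.06 (SE, n = 6 arrays; limma adjusted p = 0.00177), and LAMB1 ranked 253 by absolute ratio among 11913 genes. The gene was measured by 1 probe. It was called without any 1 array and without the narrow arrays (0.81; adjusted p = 0.00614).

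LAMC1, the gamma 1 chain that joins LAMB1 in most laminins, was not called. Its 1 probe lay at -0.17, 0.43 and 0.17 with the hatched stage in Cy5 and at 0.23, -0.02 and -0.09 with the early stage in Cy5, on both sides of 0 in either orientation. Its ratio was 0.09 (95% confidence interval -0.11 to 0.30; adjusted p = 0.679), and -0.03 without the narrow arrays (adjusted p = 0.896). LAMB1 exceeded LAMC1 on 6 of 6 arrays, by 0.70 ± 0.31 (mean ± SD, n = 6), with a smallest difference of 0.40.

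The alpha 4 chain LAMA4, known from the basement membranes of vessels and muscle, was called at 0.35 ± 0.06 (adjusted p = 0.0254). It lay at 0.47, 0.30 and 0.59 with the hatched stage in Cy5 and at 0.11, 0.25 and 0.39 with the early stage in Cy5. Without the narrow arrays it was 0.42 (adjusted p = 0.0208). The mean of all 6 arrays rests on 1 of 4 probes, which lay at 1.32 and was called alone (adjusted p = 0.00469), against -0.11 to 0.12 for the other 3. The median of the probes gave 0.13 (adjusted p = 0.244), leaving out hatched in Cy5 replicates 1 or 3 or early in Cy5 replicates 2 or 3 ended the call (adjusted p from 0.0892 to 0.106), and so did slide as a block (adjusted p = 0.0606). The 1 probe of LAMA4 on the second array set lay at 0.01 (adjusted p = 0.948). The remaining laminin chains of the first array set, LAMA2, LAMA3, LAMB2, LAMB3 and LAMC3, lay between -0.08 and 0.11, with none called.

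Of the chains of collagen IV, the sheet-forming collagen, COL4A1 was called and COL4A2 was not. COL4A1 lay at 0.45, 0.43 and 0.40 with the hatched stage in Cy5 and at 0.47, 0.45 and 0.50 with the early stage in Cy5. These 6 values were the tightest of any called member, with a standard deviation of 0.0359. They are means of 2 probes that each spread more widely, from 0.49 to 1.02 and from -0.12 to 0.45. The fitted ratio was 0.45 ± 0.05 (SE, n = 6 arrays; adjusted p = 0.00404), and 0.45 without the narrow arrays (adjusted p = 0.0142). One of its 2 probes lay at 0.83 (adjusted p = 0.00244 over all probes) and the other at 0.07 (adjusted p = 0.742).

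COL4A2, which joins COL4A1 in the same triple helix, was measured by 1 probe and lay at -0.24, -0.38 and -0.04 with the hatched stage in Cy5 and at 0.13, -0.03 and 0.18 with the early stage in Cy5. The orientations did not overlap. The ratio was -0.06 (95% confidence interval -0.21 to 0.09; adjusted p = 0.708), and -0.03 without the narrow arrays (adjusted p = 0.859). COL4A1 exceeded COL4A2 on 6 of 6 arrays, by 0.51 ± 0.20 (mean ± SD), with a range of 0.32 to 0.81. The 2 probes of COL4A1 itself, at 0.83 and 0.07, lay farther apart than the means of the chains. The other collagen IV chains, COL4A3 to COL4A6, which form the collagen IV of kidney and skin among other tissues, lay between -0.01 and 0.03 on the first array set, and COL4A3, COL4A4 and COL4A5 between 0.04 and 0.09 on the second, with none called.

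**Figure D3:**
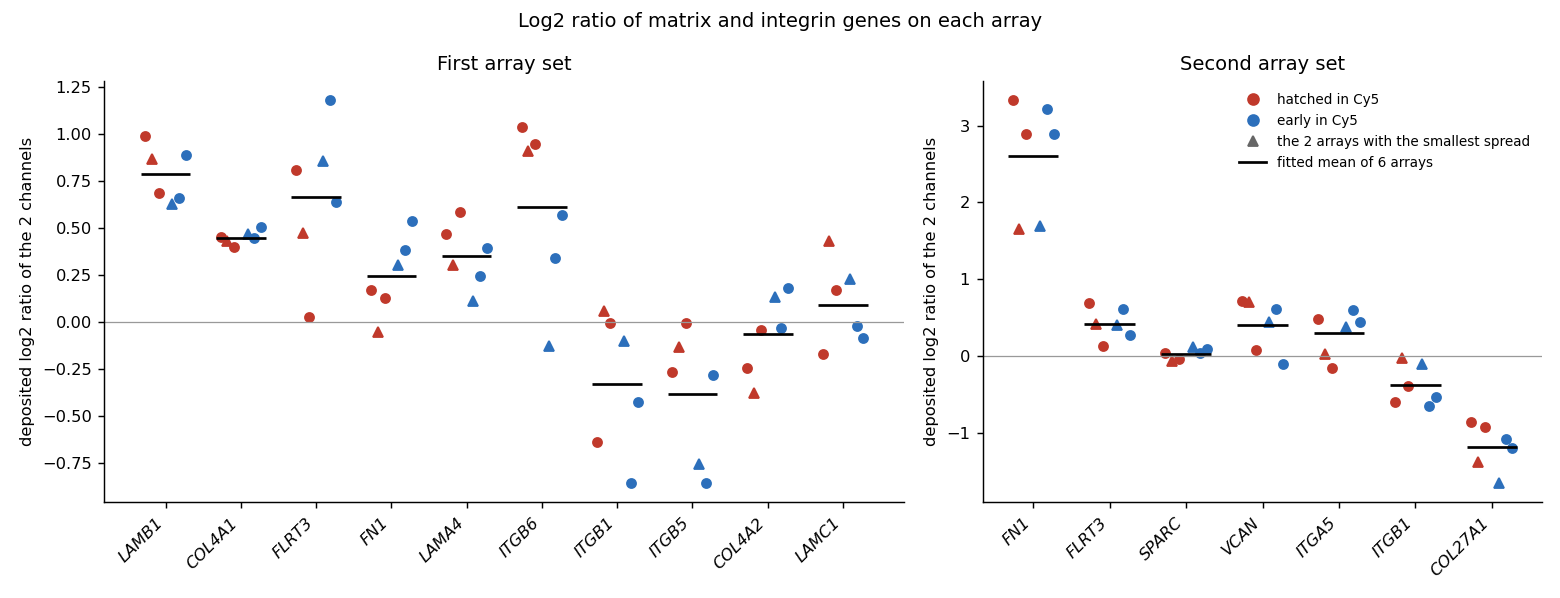
Deposited log2 ratio (vertical axis) of selected members on each array of the first (left) and second (right) array set. Red points are arrays with the hatched stage in Cy5, blue points those with the early stage in Cy5, triangles the 2 narrow arrays, and bars the fitted mean. COL4A1 is tight around 0.45 as the mean of 2 probes that each spread more widely. FN1 on the second array set is lower on the narrow arrays (1.65 and 1.69) than on the others (2.89 to 3.33).

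FN1, the fibronectin gene, had the largest ratio of any member in the study, on the second array set. It lay at 3.33, 1.65 and 2.89 with the hatched stage in Cy5 and at 1.69, 3.21 and 2.89 with the early stage in Cy5. The values fell into the pairs of arrays named above: 3.33 and 3.21, the narrow arrays at 1.65 and 1.69, and 2.89 on both arrays of the last. The 6 values may thus stand for fewer samples. The fitted log2 ratio was 2.61 ± 0.26 (SE, n = 6 arrays, limma adjusted p = 0.00215), a 6.10-fold difference if the log base is 2. FN1 ranked 6 by absolute ratio among 4531 genes. Its 2 probes lay at 2.61 each. Without the narrow arrays the ratio was 3.08 (adjusted p = 0.000831). FN1 was called without any 1 array, which leaves the other array of its pair in. With the pairs averaged it was not called (limma adjusted p = 0.0637).

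FN1 was not called on the first array set, with a mean over 5 probes of 0.25 ± 0.06 (adjusted p = 0.0675). It lay at 0.17, -0.05 and 0.13 with the hatched stage in Cy5 and at 0.30, 0.39 and 0.54 with the early stage in Cy5, so the orientations did not overlap. The probes did not move together. One lay at 1.36 ± 0.18 and was called alone (adjusted p = 0.00827), at 1.02, 0.86 and 1.83 with the hatched stage in Cy5 and at 1.196, 1.02 and 2.20 with the early stage in Cy5. The other 4 lay between -0.20 and 0.08, with none called. The probe at -0.20 changed side with the dye. It lay at -0.46, -1.22 and -1.32 with the hatched stage in Cy5 and at 0.36, 0.87 and 0.55 with the early stage in Cy5 (dye term -1.60). The called probe exceeded the mean of the others on 6 of 6 arrays, by 0.80 to 2.13.

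FLRT3 was called on both array sets. On the first it lay at 0.81, 0.48 and 0.03 with the hatched stage in Cy5 and at 0.86, 1.18 and 0.64 with the early stage in Cy5, a wide spread with every value above 0. The ratio was 0.67 ± 0.11 (adjusted p = 0.0207). On the second it lay at 0.69, 0.41 and 0.13 and at 0.40, 0.61 and 0.27 in the same order, with a ratio of 0.42 ± 0.09 (adjusted p = 0.0235). In both sets hatched in Cy5 replicate 3 was the lowest array.

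Single probes again carried the FLRT3 means. Its 2 probes on the first array set lay at 1.24 (adjusted p = 0.0211) and 0.09. On the second, 1 of 5 was called, at 1.44 (adjusted p = 0.00446), a further probe lay at 0.73 (adjusted p = 0.130), and the other 3 lay between -0.10 and 0.04. The median of the 5 probes was 0.10 (adjusted p = 0.409). Without the narrow arrays the calls ended on the first (0.66; adjusted p = 0.0595) and the second array set (0.43; adjusted p = 0.0666). Leaving out 1 array also ended them: hatched in Cy5 replicate 1 (adjusted p = 0.0635 and 0.0710), early in Cy5 replicate 2 (0.0788 and 0.0922) or early in Cy5 replicate 3 (0.0570 and 0.0519).

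SPARC, a collagen-binding glycoprotein made in quantity by the parietal endoderm of the mouse, did not pass. It was measured on the second array set alone, by 7 probes, and lay at 0.04, -0.06 and -0.05 with the hatched stage in Cy5 and at 0.11, 0.04 and 0.09 with the early stage in Cy5. All 6 values lay close to 0. Its ratio of 0.03 had a 95% confidence interval of -0.10 to 0.15 (adjusted p = 0.812), and its probes ran from -0.16 to 0.17, with none called.

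**Figure D4:**
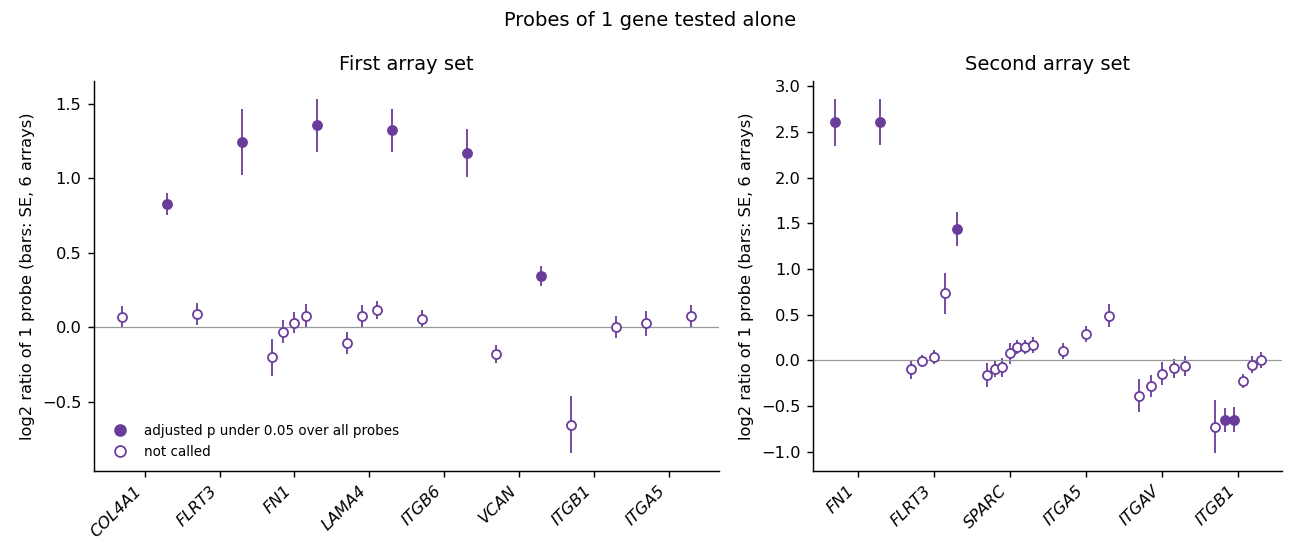
Log2 ratio of single probes (vertical axis, bars are SE over 6 arrays), grouped by gene, on the first (left) and second (right) array set. Filled points passed an adjusted p of 0.05 over all probes of the set. In COL4A1, FLRT3, FN1, LAMA4 and ITGB6 of the first array set 1 probe lies at 0.83 or above. The rest have fitted ratios between -0.20 and 0.12, and the FN1 probe at -0.20 changes side with the dye. Both FN1 probes of the second array set lie at 2.61.

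Probes of 1 gene differed in most called members. Of 111 member probes on the first array set 7 were called, all positive (6.31%, against 4.64% of all probes). Of 91 on the second 6 were called, 3 on either side (6.59%, against 6.12%). In the first array set 24 members had several probes, 6 of these had a called probe, and each of the 6 had exactly 1. The sixth, beside those named above and ITGB6, was VCAN. Where the probes lie in their transcripts was not used here, and the part played by probe position was not tested.

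Among the other collagens COL27A1 was the 1 called, on the second array set. COL27A1 encodes a fibrillar collagen known from cartilage. Its 1 probe there lay at -0.87, -1.39 and -0.93 with the hatched stage in Cy5 and at -1.66, -1.08 and -1.20 with the early stage in Cy5. The narrow arrays held the most negative values. The ratio was -1.19 ± 0.10 (SE, n = 6 arrays; adjusted p = 0.00154), and -1.02 without the narrow arrays (adjusted p = 0.00281). The 2 probes of the first array set gave 0.13 ± 0.06 (adjusted p = 0.331), on the other side.

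On the first array set 6099 of 11913 genes lay above 0 and 4.75% were called. Of the 32 collagens there 26 lay above 0 and 31 were not called. Their median was 0.03, and apart from COL4A1 they ran from -0.07 (COL6A3) to 0.13 (COL13A1). The fibrillar collagens of connective tissue lay near 0: COL1A1 at 0.01 with a 95% confidence interval of -0.13 to 0.14, and COL1A2 at -0.01 with an interval of -0.14 to 0.11. COL1A2 lay at 0.09 (-0.07 to 0.26) on the second array set. Apart from COL27A1 the 15 collagens there ran from -0.10 (COL6A2) to 0.12 (COL10A1).

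VCAN encodes versican, a large proteoglycan that binds hyaluronan. Its 1 probe on the second array set lay at 0.71, 0.71 and 0.08 with the hatched stage in Cy5 and at 0.44, 0.61 and -0.10 with the early stage in Cy5. Replicate 3 of either orientation was low. The ratio was 0.41 ± 0.12 and did not pass (adjusted p = 0.0823). Its mean on the first array set was 0.08 (adjusted p = 0.468), over a probe called at 0.35 (adjusted p = 0.0302) and one at -0.18 (adjusted p = 0.174).

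Among integrins ITGB6 was called on the first array set. ITGB6 pairs with ITGAV into an epithelial receptor of fibronectin and latent TGF-beta. It lay at 1.04, 0.91 and 0.95 with the hatched stage in Cy5 and at -0.13, 0.34 and 0.57 with the early stage in Cy5, so the orientations did not overlap. The fitted ratio was 0.61 ± 0.09 (adjusted p = 0.0131), with a dye term of 0.71 (adjusted p = 0.0919). The ratio was 0.72 without the narrow arrays (adjusted p = 0.00576). Without the dye term ITGB6 did not pass (adjusted p = 0.0612), nor without hatched in Cy5 replicates 1 (0.0592) or 3 (0.0537) or early in Cy5 replicate 2 (0.0621).

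One of the 2 ITGB6 probes lay at 1.17 (adjusted p = 0.00899) and the other at 0.06. Its 1 probe on the second array set lay at -0.09 (95% confidence interval -0.29 to 0.11; adjusted p = 0.614). The partner ITGAV lay at -0.18 ± 0.07 on the first array set (adjusted p = 0.258) and at -0.19 ± 0.08 on the second (adjusted p = 0.194), below 0 on 5 of 6 arrays in each. Without the narrow arrays it was -0.29 in both (adjusted p = 0.0515 and 0.0667). ITGB6 exceeded ITGAV on 5 of 6 arrays of the first set, by 0.80 ± 0.55 (mean ± SD), and on 4 of 6 of the second, by 0.10 ± 0.20.

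ITGB1, the beta chain shared by most matrix-binding integrins, lay on the negative side without passing. On the second array set, with 6 probes, it lay at -0.60, -0.02 and -0.39 with the hatched stage in Cy5 and at -0.11, -0.65 and -0.54 with the early stage in Cy5. The narrow arrays were nearest to 0 and no value was above it. The ratio was -0.38 ± 0.10 (adjusted p = 0.0541). Without the narrow arrays it was -0.54 and was called (adjusted p = 0.00928), as it was after removal of hatched in Cy5 replicate 2 (adjusted p = 0.0301) or of early in Cy5 replicate 1 (0.0323), without the dye term (0.0381) and with the arrays scaled to 1 spread (0.0431).

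Of the 6 ITGB1 probes 2 were called alone, at -0.66 (adjusted p = 0.0272) and -0.65 (adjusted p = 0.0305). The rest ran from -0.73 to 0.01. ITGB1 of the first array set lay at -0.64, 0.06 and -0.00354 with the hatched stage in Cy5 and at -0.10, -0.86 and -0.43 with the early stage in Cy5. That ratio was -0.33 ± 0.13 (adjusted p = 0.236; -0.48 and 0.0909 without the narrow arrays), the mean of probes at -0.65 and -0.0015.

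ITGA5 pairs with ITGB1 into the main fibronectin receptor. ITGA5 of the second array set lay at 0.48, 0.03 and -0.16 with the hatched stage in Cy5 and at 0.38, 0.60 and 0.44 with the early stage in Cy5, 5 of 6 above 0. Its ratio was 0.29 ± 0.09 and did not pass (adjusted p = 0.0886). ITGB1 lay below ITGA5 on 6 of 6 arrays there, with a mean difference of -0.68 ± 0.49 (SD), and on 5 of 6 of the first array set, where ITGA5 lay at 0.05 ± 0.07 (adjusted p = 0.800).

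ITGB5, an ITGAV partner that binds vitronectin, was measured on the first array set alone. It lay at -0.26, -0.13 and -0.00303 with the hatched stage in Cy5 and at -0.75, -0.86 and -0.28 with the early stage in Cy5, below 0 on every array and without overlap between the orientations. The ratio was -0.38 ± 0.09 (adjusted p = 0.0540). It was called once early in Cy5 replicate 3 was left out (-0.47; limma adjusted p = 0.0349). ITGB3, a further ITGAV partner, lay at 0.04 and 0.02 on the first and second array sets (adjusted p = 0.830 and 0.936). It lay at 0.08 and 0.13 without the narrow arrays (adjusted p = 0.649 and 0.414). ITGA6, which binds laminin, lay at -0.04 ± 0.09 (adjusted p = 0.866), and at 0.01 without those arrays (adjusted p = 0.983).

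On the first array set 4.75% of all genes were called and 6099 of 11913 lay above 0. Of 24 integrins there 23 were not called and 14 lay above 0. The largest uncalled positive ratio was that of ITGA10, a collagen receptor chain, at 0.18 ± 0.08 (adjusted p = 0.305), and 0.09 without the narrow arrays (adjusted p = 0.610). Limma called 0 of 11 integrins on the second array set (11.0% of all genes), and 3 had an unadjusted p under 0.05 (23.7% of all genes). The leukocyte integrins ITGAL, ITGAM and ITGAE lay between -0.15 and 0.03 on the first array set, and ITGAL and ITGB2 at -0.04 and 0.01 on the second, with none called.

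The term that follows the dyes passed for 0 of 67 members on the first and 0 of 32 on the second array set by limma, against 0.991% and 0.00% of all genes. These counts are of gene means, in which probes can cancel. Single member probes had dye terms as large as -1.60 (FN1, first array set) and 1.05 (ITGB3, second array set). The shared part of the ratio correlated at 0.489 between the array sets over 3817 common genes, and the part that follows the dyes at 0.179. These are correlations across genes, which are not independent replicates. The values were therefore taken as already turned to 1 direction. Had they not been, the calls above would follow the dyes and not the stages.

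A list of 72 other genes of matrix making and adhesion was set beside the members. On the first array set 52 were measured, 1 was called positive and 2 negative (5.77%, against 4.75% of all genes), and the median was 0.04. On the second 26 were measured, 1 was called on either side (7.69%, against 11.0% of all genes), and the median was 0.03. Of the basement membrane and receptor genes in the list, CD9, a tetraspanin that binds integrins, was called on the first array set at 0.67 ± 0.13 (adjusted p = 0.0368). It lay at 0.27, 1.003 and 0.84 with the hatched stage in Cy5 and at 0.99, 0.15 and 0.74 with the early stage in Cy5, with hatched replicate 1 and early replicate 2 lowest. The call ended without hatched replicates 2 or 3 or early replicates 1 or 3 (adjusted p from 0.0765 to 0.146), and on the second array set CD9 lay at 0.48 ± 0.15 (adjusted p = 0.0880). CD47, the integrin-associated protein, was called on the first array set at -0.78 ± 0.10 over 8 probes (adjusted p = 0.00751), and without any 1 array. On the second its 1 probe lay at -0.42 ± 0.14 (adjusted p = 0.105), called only without hatched replicate 2 (adjusted p = 0.0492). SDC4, a heparan sulfate proteoglycan of adhesion sites, lay at 0.54 on both array sets, called on the second (adjusted p = 0.00867) and not on the first (adjusted p = 0.0664).

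None of the collagen-making enzymes and chaperones was called by limma, of 10 measured on the first and 4 on the second array set. At an unadjusted p under 0.05 were 3 and 0, against 17.1% and 23.7% of all genes. Of the soluble and matricellular ligands DCN, the collagen-binding proteoglycan decorin, was the 1 called of 19 measured on the first array set, at -0.95 ± 0.21 (adjusted p = 0.0475). It ran from -1.71 to -0.08 over the arrays. The call ended with pairs of arrays as a random block (adjusted p = 0.0633) and without any 1 array other than hatched replicate 3 (adjusted p from 0.0865 to 0.162). On the second it lay at -0.31 ± 0.08 over 5 probes (adjusted p = 0.0568). Of the adhesion complex 0 of 12 were called on the first array set, with 3 at an unadjusted p under 0.05. On the second 1 of 6 was called, the actin linker VCL at -0.36 ± 0.07 (adjusted p = 0.0229). VCL was not called without hatched replicates 1 or 3 or early replicates 2 or 3 (adjusted p from 0.0674 to 0.0905), and lay at 0.04 ± 0.07 on the first array set (adjusted p = 0.821).

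Markers of the hypoblast and of other cells were set beside the basement membrane genes. Over all genes limma called 4.75% on the first and 11.0% on the second array set. The unadjusted p was under 0.05 for 17.1% and 23.7% of all genes. Of 8 hypoblast markers 5 were measured on the first array set and 2 were called positive, the apolipoprotein genes APOA1 (2.32) and APOE (0.67). PDGFRA (0.15), GATA6 (-0.06) and FOXA2 (-0.07) were not called there. On the second 4 were measured, both apolipoprotein genes were called positive, and the regulator GATA6 was called negative (-0.72). GATA4 (0.07) was not called. The median of the hypoblast list ran from -0.06 to 0.37 over the arrays of the first and from 0.15 to 1.29 over those of the second set. Of 8 genes listed here as trophectoderm markers 3 of 8 measured were called on the first array set, all positive. They were GATA2 (1.06), KRT8 (0.76) and KRT18 (0.50). There were 4 of 6 called on the second, GATA2 (1.30) and KRT8 (0.72) on the positive and TFAP2C (-0.71) and DAB2 (-1.12) on the negative side. Of 6 inner cell mass markers 1 of 5 was called on the first, SALL4 (-0.34), and 2 of 6 on the second, LIN28A (0.36) and KLF4 (-1.28). Of 6 markers of oviduct and uterine epithelium 0 of 6 measured were called on the first array set, with 1 at an unadjusted p under 0.05. On the second 1 of 5 was called, the uterine protease inhibitor UPTI at 2.97 ± 0.40, with values from 1.83 to 4.46. The median of that list ran from -0.18 to 0.16 over the arrays of the first and from -0.05 to 0.36 over those of the second set. Of 8 stromal markers 1 of 7 measured was called on the first array set, DCN on the negative side, and 0 of 6 on the second by limma, with 2 at an unadjusted p under 0.05. Of 8 blood and endothelial markers 0 of 4 were called on the first, with 0 at an unadjusted p under 0.05, and 1 of 5 on the second, PECAM1 at -0.25. The stromal median ran from -0.17 to 0.23 and from -0.12 to 0.17 over the arrays, and the blood and endothelial median from -0.08 to 0.13 and from -0.16 to 0.07. The part of these cells in the ratios of FN1 and the other members was not tested.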

How the data were processed

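Per the labels' protocols, total RNA was amplified in 2 rounds with T7 RNA polymerase and labelled chemically for Agilent slides. The deposited values are log ratios of 2 channels per probe, read here as log2. Their log base was read from the range, with single values of -12.7 and 12.2 on the second array set, too wide for log10. A natural log was not tested. Not given in the sources used here are the authors' scanner, normalization and ratio direction. No channel intensities were used. The number of arrays limits the precision.

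Probe names came from GEO's platform annotation (18121 of 43794 and 10290 of 45220 had 1 symbol, 0 had several), updated by accession or synonym through RefSeq genes of Sscrofa11.1 (names only). The update added 2 ITGA2B probes to the first and 1 to the second array set. Probes of 1 symbol were averaged per array. Each array set was fitted alone, over all genes, with limma 3.58.1 in R 4.3.3, a stage effect and a dye term, 2-sided, Benjamini-Hochberg adjusted at 0.05. Each array counted as 1 sample. The fit was tested on simulated data with independent arrays, so that test does not cover arrays that share extracts. Members, lists and the naming rule were chosen with earlier results of these data known. The rule named every called member, 15 fixed genes, the 5 largest uncalled members per array set and members with probes on both sides of which 1 was called, besides called partner genes and markers. The remaining laminin and collagen IV chains and the collagens at the ends of a range were named after their values were seen. So were COL1A1, COL1A2, the leukocyte integrins and the uncalled hypoblast markers.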

Additional observations from a re-analysis of the deposited data

Results flagged for a closer look

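Among the named members and list medians, 18 on the first and 12 on the second array set, 3 had 1 array far from the other 5. ITGA5 on the first array set lay at 0.39 on early in Cy5 replicate 2, where the next highest array was at 0.08. VCAN on the first array set lay at -0.0351 on early in Cy5 replicate 3, where the next lowest was at 0.08. COL10A1 on the second array set lay at 0.33 on hatched in Cy5 replicate 3, where the next highest was at 0.13. None of these genes was called. Chance alone marks about 1 in 20 such sets of values.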

How the results depend on the processing

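The labels give the arrays no replicate numbers that pair them. Arrays of opposite dye whose residuals correlate (0.358 to 0.746) may share extracts, which the labels do not say. The narrow arrays are 1 of these pairs in both array sets. With these pairs as a random block 5 and 3 members were called on the first and second array sets, the same genes as without it (3.79% and 8.23% of all genes were called). With the pairs averaged, which leaves 3 values per gene, 0 and 0 members were called by limma (smallest adjusted p = 0.0752 and 0.0620; 7 and 6 members at an unadjusted p under 0.05), as were 0 of 11913 and 4 of 4531 of all genes. With slide as a block 4 and 3 members were called (LAMA4 lost; 2.86% and 7.75% of all genes), and within the slide of 4 arrays 3 and 2 (FLRT3 lost on both array sets and LAMA4 on the first; 2.04% and 4.63% of all genes). The other slide holds 2 arrays and was not fitted alone. Without the 2 narrow arrays 4 and 3 were called (9.79% and 17.3% of all genes). Leaving out 1 array left 2 to 5 calls on the first array set (2 without hatched replicate 1 or without early replicate 2, 3 without hatched replicate 3) and 2 to 4 on the second, where 1.65% to 5.12% and 5.63% to 12.8% of all genes were called. Calls of matrix partner genes ranged from 1 to 2 on the first and from 1 to 3 on the second, and were 2 and 2 with the random block. On the first the 1 came without hatched replicate 2 or without early replicates 1 or 3, and on the second without hatched replicates 1 or 3 or without early replicates 2 or 3. The median of the basement membrane genes on the second array set was 0.10 with the median of the probes. No named member's called ratio changed side under any alternative run. LAMB1, COL4A1, FN1 (second array set) and COL27A1 were called under every alternative except the pairs averaged.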
